A study of Mus musculus with 30 samples.

Results

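The genes described here are 6 inhibitors of cyclin-dependent kinases (Cdkn1a, Cdkn1b, Cdkn2a, Cdkn2b, Cdkn2c and Cdkn2d) together with the tumour suppressor gene Trp53 and a pair of its classical targets (Mdm2 and Ccng1). They were taken by symbol from the deposited expression table, where all 9 were found among 14685 genes and all 9 exceeded 1 FPKM (fragments counted on a gene, scaled to its length and to the size of the library) in at least 1 sample, so that each was among the 14525 genes tested. RNA was sequenced from E14 mouse embryonic stem cells (ESC) and from 4 cell populations derived from them on the way to blood: Flk1+ mesodermal cells, KIT+ CD41- Tie2+ hemogenic endothelium (HE1), KIT+ CD41+ Tie2+ hemogenic endothelium (HE2) and KIT+ CD41+ Tie2- progenitors. Each population was collected from unmutated E14 cells (WT), from Sp1_deltaDBD cells and from Sp3KO cells, with 2 replicates in each of the 15 groups. Sp1_deltaDBD cells (Sp1 ΔDBD/ΔDBD) still make an Sp1 protein without its DNA-binding domain, and Sp3KO cells (Sp3-/-) lack functional Sp3. Both mutations were introduced into ESC, so every later population of a mutant carried it from the start, and each genotype is represented by ESC of the E14 background only.

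Progress through the cell cycle is driven by cyclin-dependent kinases and held back by small proteins that bind them. The Cip/Kip inhibitors p21 (Cdkn1a) and p27 (Cdkn1b) act mainly on cyclin E and cyclin A complexes, whereas the INK4 inhibitors p16 (Cdkn2a), p15 (Cdkn2b), p18 (Cdkn2c) and p19 (Cdkn2d) bind Cdk4 and Cdk6. The p53 protein (Trp53) is kept low by the ubiquitin ligase Mdm2, which is itself a p53 target, and once stabilised p53 raises transcription of Cdkn1a, Mdm2 and cyclin G1 (Ccng1). The Cdkn2a locus also encodes Arf, a protein from an alternative first exon that restrains Mdm2, and the table holds 1 value for the locus, so p16 and Arf transcripts cannot be told apart. Sp1 and Sp3 are ubiquitous zinc-finger factors that bind GC-rich promoter elements called GC boxes, and the promoter of Cdkn1a is a classical example of their targets.

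The labelled cell types were checked against their markers. The 7 ESC markers summed to 2449 to 2523 FPKM in WT ESC and to 1.97 to 2.34 FPKM in WT progenitors, the 5 mesoderm markers to 343 to 355 FPKM in WT Flk1, the 7 endothelial markers to 1291 to 1899 FPKM in WT HE1 and the 7 hematopoietic markers to 315 to 392 FPKM in WT progenitors. Sp3 RNA was lower in Sp3-/- cells in all 5 populations, with log2 fold changes between -3.32 and -2.40, while Sp1 RNA in Sp1 ΔDBD/ΔDBD cells changed by -0.76 to -0.10, which checks little because only part of the gene is removed. The HE1 replicates differed in markers of other cells. Smooth and cardiac muscle markers summed to 1696 FPKM in WT HE1 replicate 1 against 356 FPKM in replicate 2, to 995 and 248 FPKM in Sp1 ΔDBD/ΔDBD HE1 and to 195 and 123 FPKM in Sp3-/- HE1. Fibroblast or feeder markers in HE1 were likewise higher in replicate 1 of each genotype, at 296 and 40.5 FPKM in WT, 132 and 14.9 FPKM in Sp1 ΔDBD/ΔDBD and 30.7 and 21.5 FPKM in Sp3-/-. ESC were kept on feeder cells and grown without them for 2 passages before differentiation. The paper does not state whether the ESC taken for RNA were also grown without feeders. In ESC the fibroblast or feeder markers summed to 6.18 to 6.20 FPKM in WT, 13.3 to 16.4 FPKM in Sp1 ΔDBD/ΔDBD and 4.48 to 10.7 FPKM in Sp3-/-. Progenitors differed in markers of blood lineages. Erythroid markers summed there to 13606 and 4494 FPKM in WT, 9655 and 7243 FPKM in Sp1 ΔDBD/ΔDBD and 1515 and 3451 FPKM in Sp3-/-. Megakaryocyte markers summed to 22.2 and 35.6 FPKM in WT, 45.5 and 57.1 FPKM in Sp1 ΔDBD/ΔDBD and 25.5 and 28.9 FPKM in Sp3-/-. The part of these differences in the progenitor values below was not tested. These are bulk samples, in which fewer expressing cells and less RNA per cell cannot be told apart.

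Stretches of promoter are shown for the 3 classical p53 targets of the set, because each of them was called lower in at least 3 populations of Sp3-/- cells, as described below. Each runs from up to 250 bases before the RefSeq transcription start to the annotated gene start, in the GRCm38.p6 build, 5′ to 3′ on the strand of the gene. Cdkn1a has 2 RefSeq windows, and only the upstream one is shown. Capitals mark a p53 site, sought as a pair of adjacent p53 half-sites of 10 bases with at most 1 mismatch in 20, or a GC box, sought as GGGCGG on both strands.

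Cdkn1a, chr17:29090729-29090975, plus strand: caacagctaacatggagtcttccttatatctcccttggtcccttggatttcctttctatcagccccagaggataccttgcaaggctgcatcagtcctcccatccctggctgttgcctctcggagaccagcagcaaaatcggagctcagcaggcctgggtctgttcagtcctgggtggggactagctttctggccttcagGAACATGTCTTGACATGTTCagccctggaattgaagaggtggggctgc

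Ccng1, chr11:40755312-40755536, minus strand: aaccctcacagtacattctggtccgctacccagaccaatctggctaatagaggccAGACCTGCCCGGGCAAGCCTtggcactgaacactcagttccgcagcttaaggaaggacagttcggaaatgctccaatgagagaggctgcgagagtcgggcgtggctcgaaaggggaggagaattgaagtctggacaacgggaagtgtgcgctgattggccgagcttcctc

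Mdm2, chr10:117710759-117711008, minus strand: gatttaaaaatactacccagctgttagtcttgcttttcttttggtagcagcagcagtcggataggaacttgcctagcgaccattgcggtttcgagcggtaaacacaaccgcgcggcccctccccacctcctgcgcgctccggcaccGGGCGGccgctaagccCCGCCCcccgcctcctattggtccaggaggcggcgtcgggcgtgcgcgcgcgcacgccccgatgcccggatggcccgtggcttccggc

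In windows of 300 bases, from 250 before to 50 after a start, the p53 site was found in 29 of 32817 RefSeq windows (0.0884%). These included the first Cdkn1a window, where it began 51 bases before the upstream start, and the Ccng1 window, where it began 195 bases before the start, each with 1 mismatch. No other window of the 9 genes held one. Sequence outside these windows was not searched, so a site elsewhere in a gene, Mdm2 included, would be missed. A GC box was found in 35.6% of all windows and in at least 1 window of 7 of these 9 genes, the exceptions being Trp53 and Ccng1. Mdm2 had 2, Cdkn2d had 5 and Cdkn2c had 4 in the upstream window. Cdkn1a had none in the window above, which belongs to its upstream start. Its second window, at a downstream start within the annotated gene (chr17:29093519-29093818), had 2, beginning 104 and 46 bases before that start. Which Cdkn1a start was in use was not examined. These letters describe the windows only. Binding was not analysed here.

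Expression was compared on log2(FPKM + 0.1) with limma over all 30 samples, and calls were made at an adjusted p below 0.05 (Benjamini-Hochberg over the 14525 genes of a comparison). Fold changes of genes near or below 1 FPKM are understated on this scale. The 2 WT samples of a population served for either mutant, so the differences of both mutants share their error. An exact permutation test of 2 against 2 samples cannot go below p = 0.333, and each call therefore rests on a spread shared across genes and groups. In Sp1 ΔDBD/ΔDBD cells 6 of 45 gene-by-population values were called, 1 higher and 5 lower than WT. The genes called numbered 1 of 9 in ESC (6.06% of all genes tested were called there) and 2 in Flk1 (5.54%), followed by 1 gene each in HE1 (10% of all genes), HE2 (9.67%) and progenitors (8.78%). Among the Sp3-/- values 18 of 45 were called, 6 higher and 12 lower, with 5 of 9 genes in ESC (11.3% of all genes), 4 in Flk1 (12.6%) and 3 genes each in HE1 (10.9%), HE2 (13.8%) and progenitors (8.65%). The share of the 9 genes called was above that of all genes in each Sp3-/- population. The 9 genes were chosen with earlier results of these data known, and this excess was not tested. In HE1 and in progenitors the 3 genes called were the same, Cdkn1a, Mdm2 and Ccng1. For Sp1 ΔDBD/ΔDBD, 1 gene of 9 in ESC, HE1, HE2 and progenitors is near the background in this fit without a replicate block, and 2 of 9 in Flk1 is above it. With the replicate number as a block 9 values in place of 6 were called, Cdkn2a in ESC, Flk1 and HE1 being added. When only the samples of a population were fitted, the calls numbered 3 in Sp1 ΔDBD/ΔDBD cells and 5 in Sp3-/- cells. The shares of all genes called in these alternative fits are not given here, so their counts are not set against a background. The median change of the 9 genes in Sp3-/- cells lay between -0.61 and 0.71, beside medians over all genes of -0.02 to 0.05.

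**Figure D1:**
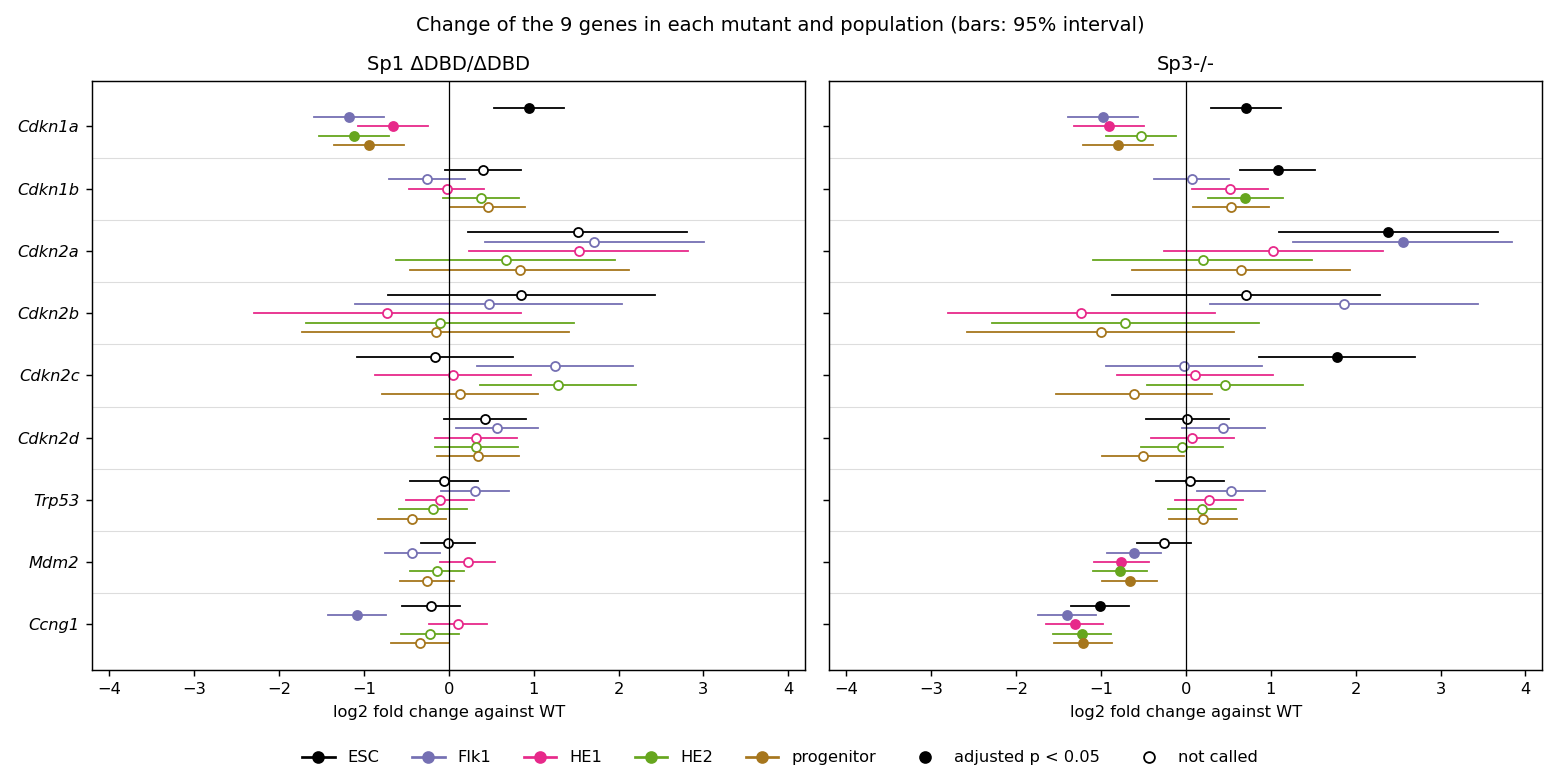
log2 fold changes against WT (x axis) of the 9 genes (y axis) in Sp1 ΔDBD/ΔDBD cells (left) and Sp3-/- cells (right). Each colour is a population, points are limma estimates from 2 against 2 samples, bars are 95% intervals and filled points have an adjusted p below 0.05. Cdkn1a lies right of 0 in ESC and left of 0 in the 4 later populations of both mutants, and Ccng1 lies left of 0 in all 5 populations of Sp3-/- cells.

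Cdkn1a (chr17:29090976-29100727, plus strand), which encodes p21, was higher than WT in ESC of both mutants and lower than WT after differentiation. In ESC it was at 5.74 and 3.81 FPKM in WT, at 10.03 and 8.30 FPKM in Sp1 ΔDBD/ΔDBD and at 7.78 and 7.66 FPKM in Sp3-/-. All 4 mutant samples lay above both WT samples, with a log2 fold change of 0.95 ± 0.20 (SE, adjusted p = 0.00628) in Sp1 ΔDBD/ΔDBD and 0.71 ± 0.20 (adjusted p = 0.0252) in Sp3-/-. In Flk1 the order turned. WT cells had 7.78 and 9.50 FPKM, Sp1 ΔDBD/ΔDBD cells 4.50 and 3.11 FPKM and Sp3-/- cells 4.64 and 4.03 FPKM, and both mutants were lower without overlap (-1.18, adjusted p = 0.00106, and -0.98, adjusted p = 0.00346). In Flk1, 4 of 7 endothelial markers were called higher in Sp1 ΔDBD/ΔDBD (5.54% of all genes called) and 3 in Sp3-/- (12.6%). ESC markers summed to 196 to 207 FPKM in Sp3-/- Flk1 and 47.0 to 58.4 FPKM in WT Flk1, with 2 of 7 called higher and 1 lower. Mesoderm markers summed to 614 to 659 FPKM in Sp3-/- Flk1 and 343 to 355 FPKM in WT Flk1, with 2 of 5 called higher and 0 lower. The part of such marker differences in the Flk1 values of Cdkn1a and the other genes was not tested.

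The mean level of Cdkn1a was highest in HE1 in every genotype. WT HE1 had 53.1 and 44.6 FPKM, Sp1 ΔDBD/ΔDBD HE1 30.1 and 31.8 FPKM and Sp3-/- HE1 29.8 and 22.5 FPKM. Both mutants lay below WT without overlap, by -0.65 (adjusted p = 0.0412) and -0.91 (adjusted p = 0.00653) on the log2 scale. In HE2 the values were 35.5 and 32.5 FPKM in WT, 17.4 and 14.01 FPKM in Sp1 ΔDBD/ΔDBD and 22.7 and 24.3 FPKM in Sp3-/-. The decrease passed the test in Sp1 ΔDBD/ΔDBD (-1.12, adjusted p = 0.00118) but not in Sp3-/- (-0.53, 95% interval -0.94 to -0.12, adjusted p = 0.0771, called under 3 of 13 alternatives). In progenitors WT samples had 19.4 and 18.9 FPKM, Sp1 ΔDBD/ΔDBD samples 9.29 and 10.7 FPKM and Sp3-/- samples 11.5 and 10.5 FPKM, and both mutants were again lower (-0.94, adjusted p = 0.00516, and -0.80, adjusted p = 0.0157). In HE1 the muscle and fibroblast marker sums given above were also lower in the mutants than in the WT sample of the same number, and their part in the HE1 difference was not tested.

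The change in the sign of the Cdkn1a difference was itself tested, as the effect of a mutation in a later population minus its effect in ESC. This difference was negative and called in all 8 tests, and Cdkn1a was the only 1 of the 9 genes called in any of them. For Sp1 ΔDBD/ΔDBD it was -2.13 ± 0.28 (SE) for Flk1 (adjusted p = 0.000689, with 1.74% of all genes called), -1.60 for HE1 (adjusted p = 0.00323, 3.99%), -2.06 for HE2 (adjusted p = 0.000371, 2.62%) and -1.89 for progenitors (adjusted p = 0.00149, 3.15%). For Sp3-/- it was -1.69 for Flk1 (adjusted p = 0.00388, 1.48%), -1.62 for HE1 (adjusted p = 0.00725, 2.16%), -1.24 for HE2 (adjusted p = 0.0494, 0.544%) and -1.51 for progenitors (adjusted p = 0.0132, 1.34%). The tests share the ESC samples and are not independent of each other.

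Single libraries decided several Cdkn1a calls, though not their direction, and of the 9 mutant calls against WT only that in Sp1 ΔDBD/ΔDBD HE2 held when the samples of a population were fitted alone (adjusted p of the others 0.0623 to 0.149). In ESC the Sp1 ΔDBD/ΔDBD call was lost without WT replicate 2 (0.66, adjusted p = 0.127) or without mutant replicate 1 (adjusted p = 0.0741), and the Sp3-/- call without WT replicate 2 (0.42, adjusted p = 0.278) or without Sp3-/- replicate 1 (adjusted p = 0.133) or 2 (adjusted p = 0.119). In HE1 the Sp1 ΔDBD/ΔDBD call was lost without WT replicate 1 (adjusted p = 0.265) or 2 (adjusted p = 0.0609) and without mutant replicate 1 (adjusted p = 0.121) or 2 (adjusted p = 0.151), and the Sp3-/- call without WT replicate 1 (adjusted p = 0.0749) or Sp3-/- replicate 2 (adjusted p = 0.113). In Flk1 the Sp3-/- call was lost without WT replicate 2 (adjusted p = 0.0722). In progenitors the Sp1 ΔDBD/ΔDBD call was lost without mutant replicate 1 (adjusted p = 0.0540), and the Sp3-/- call without any 1 of the 4 samples (adjusted p = 0.0618 to 0.101). Of the differences between populations, the 4 in Sp1 ΔDBD/ΔDBD cells were called under all 17 alternatives with an adjusted p of at most 0.0342. The HE2 difference of Sp3-/- cells was lost under 12 of 17 alternatives (adjusted p up to 0.15), among them leaving out any sample compared other than ESC WT replicate 1. The HE1 difference was lost without HE1 Sp3-/- replicate 2 (adjusted p = 0.0568) and the progenitor difference without ESC Sp3-/- replicate 2 (adjusted p = 0.0559) or progenitor Sp3-/- replicate 1 (adjusted p = 0.0551), and all 4 Sp3-/- differences when only the samples compared were fitted (adjusted p = 0.0566 to 0.143). Correcting for GC content with length ended the HE1 call of Sp1 ΔDBD/ΔDBD (adjusted p = 0.106) and the ESC call of Sp3-/- (adjusted p = 0.0599), the former was also lost without the limma trend (adjusted p = 0.0522), and the latter after centring by chromosome (adjusted p = 0.0641). The annotation also places an antisense gene on the opposite strand that shares 273 exonic bases with Cdkn1a. The paper names a stranded library kit and default settings for alignment and quantification. It does not state whether fragments were counted by strand, so antisense fragments may be part of the Cdkn1a values.

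**Figure D2:**
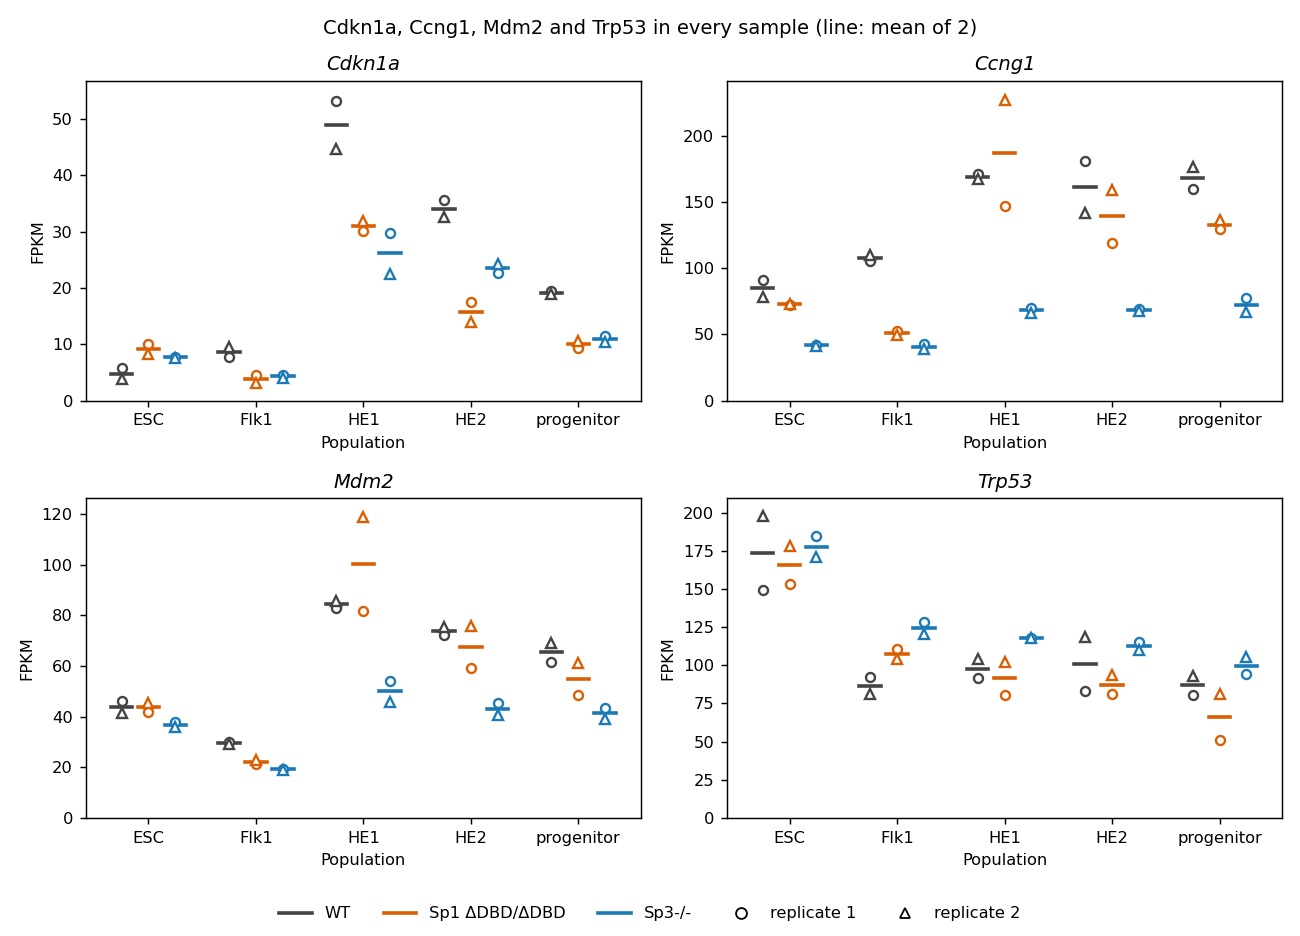
FPKM (y axis, from 0) of Cdkn1a, Ccng1, Mdm2 and Trp53 in the 5 populations (x axis). Colours are genotypes, circles and triangles are replicates 1 and 2 and lines are means of 2 samples. Cdkn1a peaks in WT HE1 at 53.1 and 44.6 FPKM, and the 2 Sp3-/- samples of Ccng1 lie below both WT samples in all 5 populations.

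Ccng1 (chr11:40748552-40755311, minus strand), which encodes cyclin G1, was lower in Sp3-/- cells in all 5 populations. In ESC it was at 91.4 and 78.2 FPKM in WT and at 42.0 and 41.5 FPKM in Sp3-/-. In Flk1 the values were 105.8 and 110.3 FPKM in WT and 42.9 and 38.9 FPKM in Sp3-/-. In HE1 they were 171 and 167 FPKM in WT and 70.2 and 66.03 FPKM in Sp3-/-. No Sp3-/- sample reached the lowest WT sample of its population, and the same held in HE2 (181 and 142 FPKM in WT, 69.3 and 67.6 FPKM in Sp3-/-) and in progenitors (160.0 and 177 FPKM in WT, 77.8 and 67.2 FPKM in Sp3-/-). The log2 fold changes were -1.02, -1.40, -1.31, -1.23 and -1.22 from ESC to progenitors, each with an SE of 0.16 and with adjusted p-values between 3.99e-05 and 0.000693. The decrease in later populations did not differ detectably from that in ESC (differences -0.39 to -0.20, adjusted p = 0.516 to 0.775).

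The other mutant, Sp1 ΔDBD/ΔDBD, had less Ccng1 in Flk1, at 52.8 and 49.4 FPKM against 105.8 and 110.3 FPKM in WT (-1.08, adjusted p = 0.000409). It was not called in the other 4 populations, where the log2 fold changes were -0.21 in ESC, 0.11 in HE1, -0.22 in HE2 and -0.34 in progenitors. The last was called after the correction for GC content and length (-0.54, adjusted p = 0.0190). Mutant HE1 samples had 147 and 227 FPKM and lay on both sides of WT. The effect in Flk1 was not shown to differ from that in ESC (-0.87, adjusted p = 0.0644, called under 5 of 17 alternatives). No Ccng1 call was lost by leaving out a sample, but those in HE1, HE2 and progenitors of Sp3-/- cells were lost when the samples of a population were fitted alone (adjusted p = 0.0757, 0.0788 and 0.0515). Genes of chromosome 11, which carries Ccng1 and Trp53, were shifted as a whole in both mutants. The median log2 fold change of its 852 genes above 3 FPKM was -0.38 to -0.13 in Sp1 ΔDBD/ΔDBD cells and -0.30 to -0.13 in Sp3-/- cells, against -0.03 to 0.07 for genes of the other chromosomes. All 6 Ccng1 calls remained when each sample was centred on its chromosome medians.

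Mdm2 (chr10:117688875-117710758, minus strand), the ubiquitin ligase that targets p53, was lower in the 4 differentiated populations of Sp3-/- cells. In Flk1 it was at 29.8 and 29.2 FPKM in WT and at 19.5 and 19.1 FPKM in Sp3-/- (-0.61 ± 0.15, SE, adjusted p = 0.0129). In HE1 the values were 83.0 and 85.8 FPKM in WT and 54.0 and 45.9 FPKM in Sp3-/- (-0.76, adjusted p = 0.00399). In HE2 they were 72.4 and 75.5 FPKM against 45.5 and 40.8 FPKM (-0.78, adjusted p = 0.00304), and in progenitors 61.8 and 69.1 FPKM against 43.4 and 39.1 FPKM (-0.66, adjusted p = 0.0107). Groups did not overlap in any of these. In ESC the Sp3-/- samples, at 37.7 and 35.7 FPKM, were also below the WT samples at 46.3 and 41.4 FPKM, but the difference of -0.25 (95% interval -0.57 to 0.07) was not called, and the tests of later populations against ESC were not called either (adjusted p = 0.241 to 0.520).

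Mdm2 of Sp1 ΔDBD/ΔDBD cells was called in none of 5 populations, with log2 fold changes of -0.43 to 0.22, although the Flk1 samples fitted alone gave a call in Flk1 (adjusted p = 0.0421). The Flk1 samples of this mutant, at 21.1 and 22.7 FPKM, lay below both WT samples, while an HE1 sample at 119 FPKM was the highest of the series. The Sp3-/- call in Flk1 was lost when any 1 of the 4 samples was left out (adjusted p = 0.0727 to 0.0901). The call in HE1 was lost without Sp3-/- replicate 2 (adjusted p = 0.0728), and that in progenitors without WT replicate 2 (adjusted p = 0.0811) or Sp3-/- replicate 2 (adjusted p = 0.0899). The calls in HE1, HE2 and progenitors were lost when the samples of a population were fitted alone (adjusted p = 0.124, 0.0997 and 0.147).

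Trp53 (chr11:69580359-69591873, plus strand) was called in none of the 10 mutant comparisons. It was the most highly expressed of the 9 genes in ESC, at 149.6 and 198 FPKM in WT, 153 and 178 FPKM in Sp1 ΔDBD/ΔDBD and 185 and 171 FPKM in Sp3-/-, with overlapping groups. In Flk1 WT samples had 92.1 and 81.1 FPKM, Sp1 ΔDBD/ΔDBD samples 111 and 104 FPKM and Sp3-/- samples 129 and 120.5 FPKM. All mutant samples were above WT there, with log2 fold changes of 0.31 (95% interval -0.09 to 0.71) and 0.53 (95% interval 0.13 to 0.93, adjusted p = 0.0780). The latter was called under 4 of 13 alternatives, among them centring by chromosome (0.67, adjusted p = 0.0234), the replicate block (adjusted p = 0.0334) and the fit of Flk1 samples alone (adjusted p = 0.0364). In HE1, HE2 and progenitors of Sp3-/- cells the values were 118 and 118, 116 and 109.8, and 94.1 and 105 FPKM, beside 91.6 and 104, 83.0 and 118, and 80.6 and 93.2 FPKM in WT, with log2 fold changes of 0.19 to 0.27. Among Sp1 ΔDBD/ΔDBD progenitors, at 51.1 and 80.9 FPKM, the difference of -0.43 was called when mutant replicate 2 was left out (-0.76, adjusted p = 0.0231). Trp53 RNA levels do not report p53 protein, which was not measured in these data.

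Cdkn1b (chr6:134920401-134925513, plus strand), which encodes p27, was higher in ESC of Sp3-/- cells. It was at 5.08 and 4.30 FPKM in WT, 7.05 and 5.50 FPKM in Sp1 ΔDBD/ΔDBD and 9.94 and 10.1 FPKM in Sp3-/-. Both mutants lay above WT, and the difference was called in Sp3-/- (1.08 ± 0.21, SE, adjusted p = 0.00294) but not in Sp1 ΔDBD/ΔDBD (0.41, 95% interval -0.04 to 0.85, adjusted p = 0.326). The ESC samples fitted alone gave an adjusted p of 0.0525 for Sp3-/-. In HE2, Sp3-/- samples had 8.96 and 11.1 FPKM against 5.77 and 6.45 FPKM in WT (0.70, adjusted p = 0.0341), a call that was lost when any 1 of the 4 samples was left out (adjusted p = 0.0549 to 0.241) or the HE2 samples were fitted alone (adjusted p = 0.230). Sp3-/- samples were also above WT in HE1 (14.3 and 16.3 against 10.7 and 10.6 FPKM) and progenitors (8.70 and 8.73 against 5.55 and 6.47 FPKM), without passing the test (adjusted p = 0.125 and 0.132). In Flk1, where Cdkn1b was highest in WT, the genotypes were close, at 17.6 and 16.6 FPKM in WT, 14.9 and 13.7 FPKM in Sp1 ΔDBD/ΔDBD and 17.0 and 18.9 FPKM in Sp3-/-.

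Cdkn2a (chr4:89274471-89294653, minus strand) was expressed at low levels, and all mutant groups had a higher mean than WT. In ESC it was at 1.04 and 0.45 FPKM in WT, 2.58 and 1.82 FPKM in Sp1 ΔDBD/ΔDBD and 4.69 and 3.46 FPKM in Sp3-/-. The increase was called in Sp3-/- (2.38 ± 0.62, SE, adjusted p = 0.0172) but not in Sp1 ΔDBD/ΔDBD (1.52, adjusted p = 0.173). In Flk1 WT samples had 0.09 FPKM and a listed 0, Sp1 ΔDBD/ΔDBD samples 0.40 and 0.31 FPKM and Sp3-/- samples 1.39 and 0.34 FPKM, and the Sp3-/- call (adjusted p = 0.0107) was lost with a pseudocount of 1 (adjusted p = 0.234), without WT replicate 2 (adjusted p = 0.151) or without Sp3-/- replicate 1 (adjusted p = 0.204). The Sp3-/- call in ESC was lost without WT replicate 2 (adjusted p = 0.151) and without Sp3-/- replicate 1 (adjusted p = 0.134) or 2 (adjusted p = 0.0670), as well as after GC content and length of genes were corrected for (1.65, adjusted p = 0.0706). Fitted alone, the ESC and Flk1 samples gave an adjusted p of 0.0634 and 0.0780 for Sp3-/-. Across the 3 blast-culture populations no mutant comparison was called, and the largest group means were 5.73 FPKM in Sp1 ΔDBD/ΔDBD HE2 (7.78 and 3.68 FPKM) and 4.48 FPKM in Sp1 ΔDBD/ΔDBD HE1 (6.17 and 2.78 FPKM). With the replicate block the Sp1 ΔDBD/ΔDBD increases were called in ESC (adjusted p = 0.0211), Flk1 (adjusted p = 0.0112) and HE1 (adjusted p = 0.0153). Over the 13 alternatives the adjusted p ranged from 0.0211 to 0.647 in ESC, from 0.00619 to 0.736 in Flk1 and from 0.00429 to 0.440 in HE1.

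Cdkn2a and its neighbour Cdkn2b followed the replicate number. Replicate 1 was above replicate 2 for Cdkn2a in 15 of 15 groups, by 0.83 on the log2 scale on average, and for Cdkn2b in 13 of 15 groups, by 0.76. Only 22 of the 14525 genes tested (0.151%) moved in one direction between the replicates of all 15 groups, and 11 of them (0.0757%) were higher in replicate 1 throughout. The muscle and fibroblast marker sums were likewise higher in replicate 1 in HE1, HE2 and progenitors of WT and Sp1 ΔDBD/ΔDBD cells, and their part in the Cdkn2a and Cdkn2b values was not tested.

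**Figure D3:**
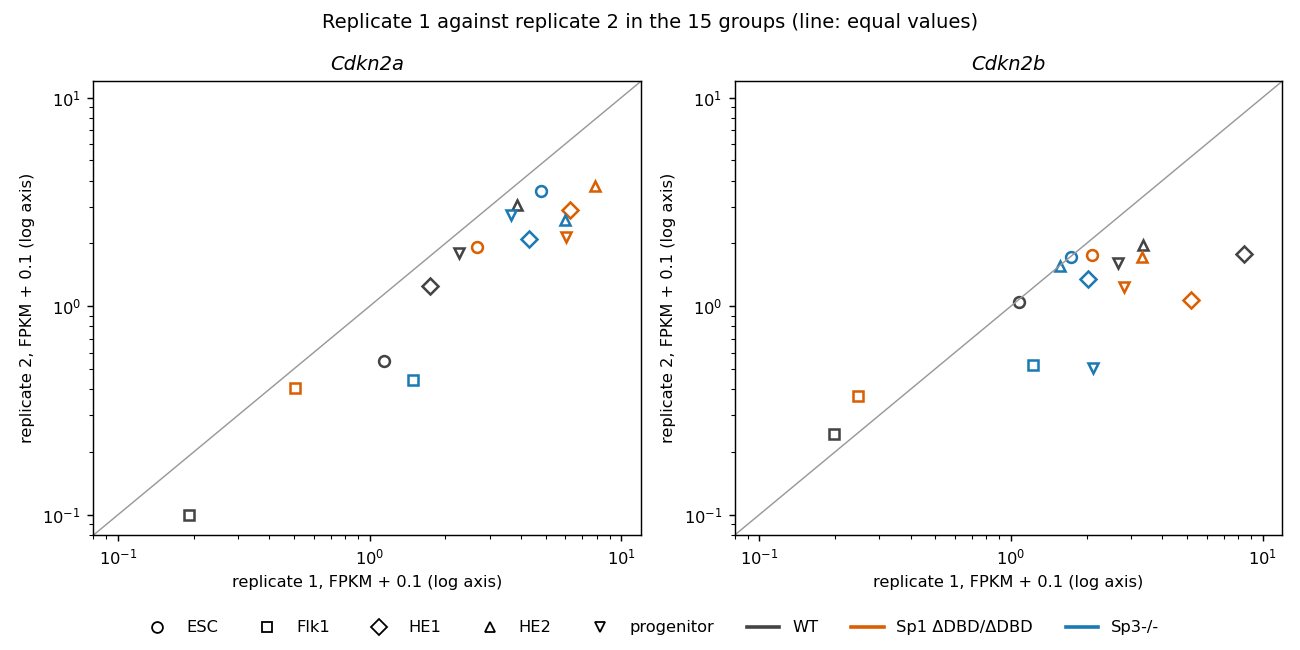
Replicate 1 (x axis) against replicate 2 (y axis) for Cdkn2a and Cdkn2b, as FPKM + 0.1 on log axes, with 1 point for each of the 15 groups (shapes are populations, colours are genotypes) and a line at equal values. All 15 points lie below the line for Cdkn2a and 13 of 15 for Cdkn2b.

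Cdkn2b (chr4:89306299-89311039, minus strand), Cdkn2c (chr4:109660876-109667189, minus strand) and Cdkn2d (chr9:21288410-21291407, minus strand) encode the other INK4 inhibitors. Cdkn2b was called in no mutant comparison. Its WT HE1 samples, at 8.34 and 1.68 FPKM, lay far apart, as did the samples of the mutants, with 5.08 and 0.97 FPKM in Sp1 ΔDBD/ΔDBD HE1 and, less so, 1.92 and 1.26 FPKM in Sp3-/- HE1. The higher sample of each pair was the one with the higher muscle marker sum. Cdkn2c did not exceed 3.72 FPKM in any sample. Its 1 mutant call, in Sp3-/- ESC, set 0.36 and 0.28 FPKM against 0.03 and 0.02 FPKM in WT (adjusted p = 0.0129), which is lost with a pseudocount of 1 (0.37, adjusted p = 0.400) and when any 1 of the 4 samples is left out (adjusted p = 0.0589 to 0.111). Both Cdkn2c samples of Sp1 ΔDBD/ΔDBD cells were above both WT samples in Flk1 (1.503 and 0.50 against 0.26 and 0.38 FPKM) and HE2 (2.40 and 1.68 against 0.63 and 0.91 FPKM), without passing the test (adjusted p = 0.110 and 0.0687). Leaving out Flk1 Sp1 ΔDBD/ΔDBD replicate 2 made the former a call (1.95, adjusted p = 0.0273), and the latter was called after the correction for GC content and length (1.39, adjusted p = 0.0423).

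Cdkn2d, the most highly expressed INK4 gene, was called in no mutant comparison. In WT it was at 4.78 and 4.97 FPKM in ESC, 3.93 and 5.10 FPKM in Flk1, 9.86 and 10.99 FPKM in HE1, 10.9 and 13.3 FPKM in HE2 and 11.8 and 21.1 FPKM in progenitors. Sp1 ΔDBD/ΔDBD samples were above both WT samples in ESC (6.82 and 6.36 FPKM), Flk1 (7.68 and 5.83 FPKM) and HE2 (16.5 and 13.8 FPKM), with log2 fold changes of 0.32 to 0.57 over the 5 populations and adjusted p-values of 0.179 to 0.447. Without WT progenitor replicate 1, the lower of that pair, the Sp3-/- decrease in progenitors (9.79 and 12.6 FPKM) was called (-0.92, adjusted p = 0.0317).

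**Figure D4:**
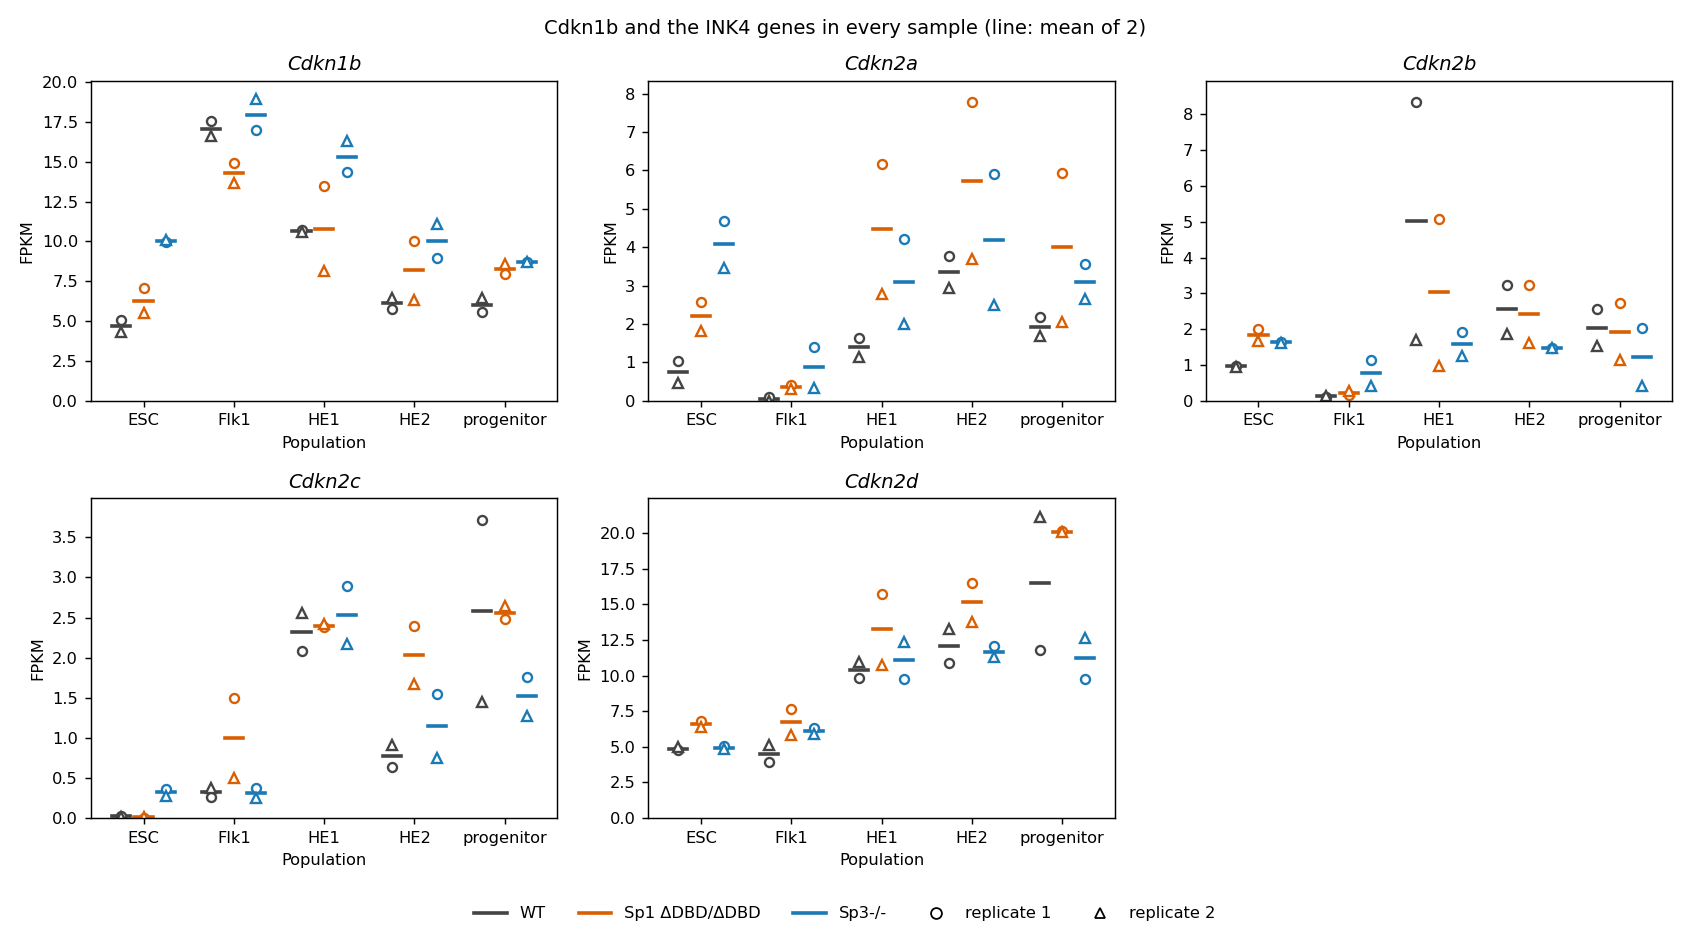
FPKM (y axes, from 0, each on its own scale) of Cdkn1b and the INK4 genes Cdkn2a, Cdkn2b, Cdkn2c and Cdkn2d in the 5 populations (x axis). Colours are genotypes, circles and triangles are replicates 1 and 2 and lines are means of 2 samples. Cdkn1b in Sp3-/- ESC (9.94 and 10.1 FPKM) lies above WT (5.08 and 4.30 FPKM), and Cdkn2b in WT HE1 spans 1.68 to 8.34 FPKM.

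The same 9 genes were followed along differentiation in WT cells. From ESC to Flk1, 7 of 9 changed (52.2% of all genes did), 3 upward and 4 downward. Cdkn1b rose by 1.85 on the log2 scale (adjusted p = 5.73e-07), from 5.08 and 4.30 FPKM to 17.6 and 16.6 FPKM, and Cdkn1a by 0.86 (adjusted p = 0.00110; 0.0624 when only the compared samples were fitted). Trp53 fell by 0.99 (adjusted p = 0.000231) and Mdm2 by 0.57 (adjusted p = 0.00411). Cdkn2a (-2.52), Cdkn2b (-2.27) and Cdkn2c (1.77) were also called, at levels near or below 1 FPKM, and lost the call with a pseudocount of 1 (adjusted p = 0.158, 0.194 and 0.243). The Cdkn2b call was in addition lost without ESC WT replicate 1 (adjusted p = 0.0613) or 2 (adjusted p = 0.0618) or without Flk1 WT replicate 1 (adjusted p = 0.08).

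From Flk1 to HE1, 8 of 9 changed (53% of all genes), 7 of them upward, and the median change of the 9 genes was 1.51 beside -0.08 over all genes. Cdkn1a rose by 2.49 ± 0.20 (SE, adjusted p = 6.29e-09) and Mdm2 by 1.51 ± 0.15 (adjusted p = 1.43e-07), from 29.8 and 29.2 FPKM to 83.0 and 85.8 FPKM, while Trp53 did not change detectably (0.18, 95% interval -0.22 to 0.58). Ccng1 rose by 0.65 (adjusted p = 0.00252) and Cdkn2d by 1.2 (adjusted p = 0.000248). Cdkn2a (3.41, adjusted p = 0.000121), Cdkn2b (4.14, adjusted p = 0.000130) and Cdkn2c (2.54, adjusted p = 7.47e-05) rose from near 0. Cdkn1b fell by 0.68 (adjusted p = 0.0116), a call lost without Flk1 WT replicate 1 (adjusted p = 0.0633) or HE1 WT replicate 2 (adjusted p = 0.0511). The 7 increases were called under every alternative in which the gene was fitted. Muscle marker sums also differed across this step, at 16.8 and 26.4 FPKM in WT Flk1 and 356 and 1696 FPKM in WT HE1, and their part in these increases was not tested.

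The later steps changed fewer of these genes. From HE1 to HE2, 2 of 9 were called (21.9% of all genes), Cdkn1b (-0.79, adjusted p = 0.0118) and Cdkn2c (-1.48, adjusted p = 0.0208). Cdkn1b lost its call without HE1 WT replicate 1 (adjusted p = 0.0612) or HE2 WT replicate 1 (adjusted p = 0.0791), and Cdkn2c without HE1 WT replicate 1 (adjusted p = 0.0585) or 2 (adjusted p = 0.106) or HE2 WT replicate 1 (adjusted p = 0.136), and both in the fit of the compared samples only (adjusted p = 0.102 and 0.107). Cdkn1a was lower by 0.52 without being called (adjusted p = 0.0675; 0.0448 with the replicate block). From HE2 to progenitors, 2 of 9 were called (13.2% of all genes). Cdkn1a fell by 0.82 (adjusted p = 0.00723; 0.0648 without HE2 WT replicate 1, 0.0911 in the fit of the compared samples only), from 35.5 and 32.5 FPKM to 19.4 and 18.9 FPKM. Cdkn2c rose by 1.5 (adjusted p = 0.0272), which was lost without HE2 WT replicate 1 (adjusted p = 0.182) or without progenitor WT replicate 1 (0.84, adjusted p = 0.368) and in the fit of the compared samples only (adjusted p = 0.330). Without the latter sample Cdkn2d was called as well (0.81, adjusted p = 0.0385). Over the 4 steps 19 of 36 values were called, 11 upward and 8 downward.

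By ratio of group means above 2 in either direction, where the higher mean exceeded 3 FPKM, and without a test, 14 of the 90 gene-by-population values passed. For Sp1 ΔDBD/ΔDBD these were 0 of 9 in ESC (2.87% of all genes passed), Cdkn1a and Ccng1 in Flk1 (3.08%), Cdkn2a in HE1 (4.26%), Cdkn1a in HE2 (4.0%) and Cdkn2a in progenitors (3.89%). For Sp3-/- they were Cdkn1b, Cdkn2a and Ccng1 in ESC (3.70%), Ccng1 in Flk1 (4.43%), Cdkn2a, Cdkn2b and Ccng1 in HE1 (4.86%), Ccng1 in HE2 (4.41%) and Ccng1 in progenitors (4.22%). With the requirement that all 4 pairs of samples differ by more than 2-fold, 6 remained. The floor of 3 FPKM is not part of the rule in the study's methods. It kept out low-level values of Cdkn2a, Cdkn2b and Cdkn2c, such as Cdkn2a in Sp3-/- Flk1 (ratio 6.65).

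The wider set of p53 targets was described with a list of 34 other established targets, all tested. In Sp3-/- cells 3 of 34 were higher and 1 lower in ESC, near the share of all genes called there (11.3%), against 2 higher and 12 lower in Flk1 (12.6% of all genes called). HE1 had 0 higher and 9 lower (10.9%), HE2 1 and 10 (13.8%), and progenitors 0 and 5 (8.65%). The 34 genes had a median change of 0.02 in ESC, and of -0.40, -0.40, -0.37 and -0.29 after it, beside medians over all genes of -0.02 to 0.05. In Sp1 ΔDBD/ΔDBD cells 2 were higher and 0 lower in ESC (6.06% of all genes called), against 0 higher and 8 lower in Flk1 (5.54%). HE1 had 3 higher and 3 lower (10%), HE2 0 and 4 (9.67%), and progenitors 1 and 6 (8.78%), with list medians of 0.05, -0.40, 0.02, -0.09 and -0.07. Fits of each population alone called 15 values in place of 43 in Sp3-/- cells and 5 in place of 27 in Sp1 ΔDBD/ΔDBD cells. The shares of all genes called in those fits are not given here.

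Among these targets Plk2, a Polo-like kinase, fell in 4 populations of Sp3-/- cells, and in HE1 it was at 94.9 and 110 FPKM in WT and 34.3 and 27.2 FPKM in Sp3-/- (-1.74 ± 0.20, SE, adjusted p = 7.65e-05). Perp, which encodes a membrane protein linked to apoptosis, was at 13.3 and 5.55 FPKM in WT HE1 and 1.94 and 1.08 FPKM in Sp3-/- HE1 (-2.48, adjusted p = 0.00183). The death receptor gene Fas fell in progenitors of both mutants, from 1.14 and 1.09 FPKM to 0.02 and 0.01 FPKM in Sp3-/- (adjusted p = 0.00458) and to 0.38 and 0.01 FPKM in Sp1 ΔDBD/ΔDBD (adjusted p = 0.0306). Gdf15, a secreted stress-response factor, moved the other way in Sp3-/- ESC, from 0.42 and 0.18 FPKM to 1.42 and 1.27 FPKM (1.92, adjusted p = 0.0120). Phlda3, an inhibitor of Akt signalling, fell in 4 populations of Sp1 ΔDBD/ΔDBD cells and in Flk1 was at 13.5 and 12.9 FPKM in WT and 4.0 and 3.50 FPKM in the mutant (-1.79 ± 0.16, adjusted p = 2.21e-06). The death receptor gene Tnfrsf10b also fell in 4 populations of either mutant, in Sp1 ΔDBD/ΔDBD progenitors from 11.1 and 6.73 FPKM to 3.19 and 1.88 FPKM (-1.77, adjusted p = 0.00161). Cd82, a tetraspanin gene, fell in Sp1 ΔDBD/ΔDBD HE1 from 1.44 and 2.68 FPKM to 0.11 and 0.40 FPKM (adjusted p = 0.0144).

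**Figure D5:**
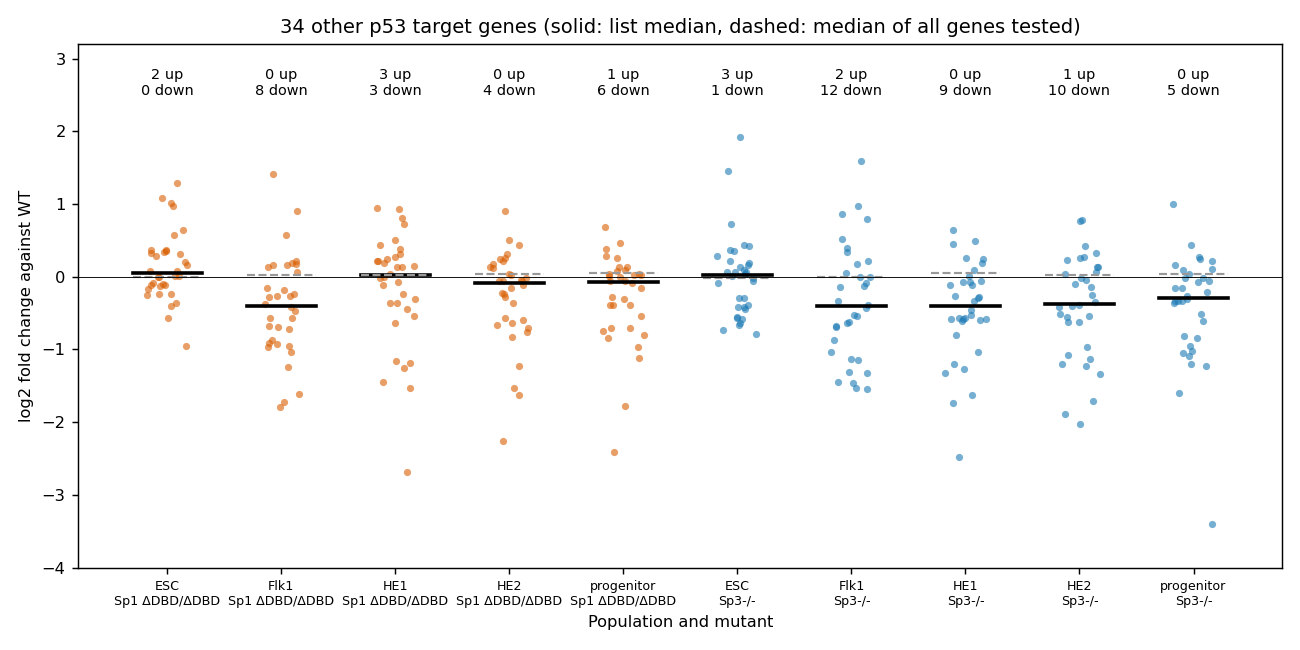
log2 fold change against WT (y axis) of 34 p53 target genes other than the 9 described, in each population and mutant (x axis). Each point is a gene, solid lines are list medians, dashed lines are medians over all genes tested and the numbers above count genes called higher and lower. The list median is near 0 in ESC and between -0.40 and -0.29 in the later populations of Sp3-/- cells.

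From Flk1 to HE1 in WT cells, 16 of the 34 targets rose and 5 fell, with a list median of 0.54 beside -0.08 over all genes. Of 19 regulators and kinases of p53, 0 rose and 11 fell at that step, with a list median of -0.38. For both lists the share called, in either direction, was not far from the 53% of all genes called at this step. In Sp3-/- cells 2 of the 19 regulators were higher and 2 lower in ESC (11.3% of all genes called), and 1 and 2 in Flk1 (12.6%). HE1 had 2 and 0 (10.9%), HE2 1 and 1 (13.8%) and progenitors 0 and 0 (8.65%). Apart from ESC, these counts were near or below the share of all genes. Daxx, a partner of Mdm2, rose in 4 populations, in Flk1 from 16.7 and 15.2 FPKM to 26.6 and 23.3 FPKM (0.64, adjusted p = 0.00323). Hipk2, a kinase of p53, was higher in ESC of both mutants, from 5.73 and 4.46 FPKM in WT to 9.36 and 13.2 FPKM in Sp1 ΔDBD/ΔDBD (1.12, adjusted p = 0.0196) and 11.5 and 13.1 FPKM in Sp3-/- (1.27, adjusted p = 0.00622). The checkpoint kinase gene Atr was called lower in 2 populations of Sp3-/- cells, in Flk1 at 15.8 and 18.3 FPKM against 30.1 and 33.3 FPKM in WT (-0.89, adjusted p = 0.00675). Rpl5, a ribosomal protein that binds Mdm2, was called lower in 3 populations of Sp3-/- cells, in ESC at 469 and 506 FPKM against 725 and 669 FPKM in WT (-0.51, adjusted p = 0.00844).

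Part of the cell cycle genes that act with or against the inhibitors were called higher in mutant HE1. Of 18 cyclins, cyclin-dependent kinases and their activators, 7 rose and 0 fell in Sp3-/- HE1 (list median 0.37, all genes 0.05, 10.9% of all genes called) and 5 rose and 0 fell in Sp1 ΔDBD/ΔDBD HE1 (0.30, all genes 0.02, 10% called). In ESC 1 rose in Sp3-/- cells (11.3% called) and 2 fell in Sp1 ΔDBD/ΔDBD cells (6.06% called). Ccne1, which encodes cyclin E1, was at 8.10 and 7.83 FPKM in WT HE1, 16.9 and 16.0 FPKM in Sp1 ΔDBD/ΔDBD HE1 (1.04, adjusted p = 0.00236) and 12.7 and 16.4 FPKM in Sp3-/- HE1 (0.85, adjusted p = 0.0105). Skp2, part of the ubiquitin ligase that degrades p27, was at 21.6 and 20.9 FPKM in WT progenitors, 33.4 and 30.1 FPKM in Sp1 ΔDBD/ΔDBD (0.57, adjusted p = 0.00446) and 33.4 and 34.4 FPKM in Sp3-/- (0.67, adjusted p = 0.00222). Of 12 pocket protein and E2f genes, 4 rose and 0 fell in HE1 of each mutant, beside the same shares of all genes in HE1. Rbl1, which encodes the pocket protein p107, rose in 5 populations of Sp1 ΔDBD/ΔDBD cells, in HE1 from 5.05 and 5.65 FPKM to 11.9 and 12.6 FPKM (1.18 ± 0.11, SE, adjusted p = 1.63e-06). Of 13 proliferation genes, 5 rose in Sp3-/- HE1 (list median 0.46) and 1 in Sp1 ΔDBD/ΔDBD HE1 (0.28), the latter near the background of 10%. In WT cells 0 of the 13 rose and 12 fell from Flk1 to HE1 (53% of all genes called), and 9 rose and 0 fell from HE1 to HE2 (21.9%). Of the other inhibitors examined, Cdkn3 rose in Sp3-/- HE1, from 7.68 and 5.13 FPKM to 10.2 and 13.8 FPKM (0.91, adjusted p = 0.0312).

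Levels were also compared between genes over the 15 group means of log2(FPKM + 0.1), as a description without a test, since the groups share populations and cultures. Among the 9 genes, Cdkn1a and Mdm2 had a Pearson r of 0.84 and Mdm2 and Ccng1 of 0.85, whereas Trp53 and Mdm2 had -0.35. Of 6234 genes searched, the pattern most like that of Cdkn1a was found in Arhgap23 (r = 0.95), Prkcdbp and Arpc3 (each r = 0.94), and that most like Mdm2 in Marc2 (r = 0.95), Eda2r and Ano3 (each r = 0.94). Ccng1 was most like Plxdc2 (r = 0.88), Nt5c3b (r = 0.87) and Egfr (r = 0.86), Trp53 most like Fgd1, Emc8 and Mycn (each r = 0.94) and Cdkn1b most like Gm1673 (r = 0.90), Tmem132a and Skida1 (each r = 0.89). Cdkn2a was most like Pccb (r = 0.95), Nagpa (r = 0.91) and Jak3 (r = 0.90), Cdkn2b most like Anxa1, Slc23a2 (each r = 0.91) and Prss23 (r = 0.89), and Cdkn2d most like Clec1b (r = 0.97), Exoc6 and Elk4 (each r = 0.96).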

How the data were processed

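The deposited table held gene-level FPKM values for 30 samples. Per the submitters' processing notes and the methods, reads were aligned to mm10 with HISAT2 2.1.0, abundances were estimated with StringTie 1.3.3, genes above 1 FPKM in at least 1 sample were kept, and the authors quantile-normalised the FPKM values. Samples therefore share almost one distribution (largest difference at a rank 0.192 FPKM, median 7.19 FPKM), total RNA changes cannot be seen, and sequencing depth is unknown, so no counting interval is given. Libraries were made from total RNA after rRNA depletion.

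Here log2(FPKM + 0.1) of 14525 genes above 1 FPKM was fitted with limma 3.58.1 (R 4.3.3) as 15 group means, with an intensity trend, 15 residual and 3.92 prior degrees of freedom, two-sided tests and Benjamini-Hochberg adjustment within each comparison at 0.05. Comparisons were each mutant against WT, consecutive WT populations, and the effect of a mutation in a later population minus that in ESC. The methods call genes by a fold change above 2, which was counted as well, here only where the higher group mean exceeded 3 FPKM. Samples sharing a number correlated between WT and Sp1_deltaDBD and across HE1, HE2 and progenitors of these genotypes, and less or not in Sp3KO. Residual degrees of freedom may therefore be overstated and p-values too small. Where the correlated samples are compared with each other, p-values may instead be too large. With the replicate block 1 of 51 calls was lost and 8 were gained. On simulated data for ESC, Sp1_deltaDBD against WT, 200 of 14525 genes were changed by 2 on the log2 scale, with noise drawn independently for each sample. Of these 200, 195 were recovered, with 18 false calls. Every mutant change of Cdkn1a, Ccng1 and Mdm2 against WT was smaller than that. How recovery depends on the size of a change was not tested.

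All 9 members were named. Of each pathway list up to 4 genes per mutant were named, those with the largest log2 fold change among called genes whose samples did not overlap, and for each member above 3 FPKM in a group the 3 genes with the highest correlation over the group means. The members and lists were chosen with earlier results of these data known. Gene positions come from GENCODE M21 (14556 of 14685 symbols matched, 184 by an older symbol) and promoter windows from RefSeq (GRCm38.p6, all 9 matched). Alternatives were another pseudocount, other filters, no trend, corrections for GC content and gene length or by chromosome, a replicate block, fits of the compared samples only and leaving out each sample.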

Additional observations from a re-analysis of the deposited data

Results flagged for a closer look

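Cdkn1a was picked out because its difference from WT in each later population of both mutants was unlike that in ESC, by a test of the difference itself. The log2 effect of Sp1 ΔDBD/ΔDBD in Flk1 minus that in ESC was -2.13, and the same quantity was -1.60 for HE1, -2.06 for HE2 and -1.89 for progenitors. The Sp3-/- values were -1.69 for Flk1, -1.62 for HE1, -1.24 for HE2 and -1.51 for progenitors. The Cdkn1a mean was above WT in ESC of both mutants and below WT in all 8 later groups. All 8 differences use the same 2 WT ESC samples, at 5.74 and 3.81 FPKM. Fibroblast or feeder marker sums also differed in ESC, at 6.18 to 6.20 FPKM in WT, 13.3 to 16.4 FPKM in Sp1 ΔDBD/ΔDBD and 4.48 to 10.7 FPKM in Sp3-/-, and their part in the ESC difference was not tested.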

How the results depend on the processing

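Of 51 called results, 18 were called under every alternative and 33 lost the call under at least 1. No called result changed sign. Of 147 results that were not called, 59 turned in sign under at least 1 alternative, without a call. The largest loss came from fitting only the compared samples, 6, 4 or 12 in place of 30 with fewer residual degrees of freedom, where 27 of the 51 calls were lost. The calls then numbered 3 in place of 6 in Sp1 ΔDBD/ΔDBD cells, 5 in place of 18 in Sp3-/- cells, 14 in place of 19 for WT steps and 5 in place of 8 for differences from ESC, and 5 in place of 27 and 15 in place of 43 for the p53 target list in the Sp1 ΔDBD/ΔDBD and Sp3-/- cells. By fold change, 6 in place of 14 values passed when all 4 pairs of samples had to exceed 2-fold. Leaving out 1 sample gave 5 to 7 calls in Sp1 ΔDBD/ΔDBD cells, 15 to 18 in Sp3-/- cells, 15 to 19 for WT steps, 6 to 9 for differences from ESC, 13 to 15 values past a fold change of 2, and 21 to 28 and 33 to 43 calls for the p53 target list. The stricter filter could not be fitted for Cdkn2c, which does not pass it. The counts of the p53 target list under the alternatives were added after the data were seen. All counts under the alternatives stand without the share of all genes called in the same fit.

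Replicate numbers are shared by the labels only as numbers, with 2 per group, and no label ties a number to a shared culture or day, so the block was kept as an alternative. After subtraction of group means, samples with the same number correlated at 0.255 to 0.481 between Sp1 ΔDBD/ΔDBD and WT within a population, and at 0.00318 to 0.194 between Sp3-/- and WT. Within a genotype, HE1, HE2 and progenitors correlated at 0.382 to 0.458 for WT, at 0.451 to 0.649 for Sp1 ΔDBD/ΔDBD and at 0.0264 to 0.161 for Sp3-/-. With the replicate block 1 of 51 calls was lost, the Cdkn1a difference between HE2 and ESC in Sp3-/- cells (adjusted p = 0.0516), and 8 were gained, so that 9 in place of 6 values were called in Sp1 ΔDBD/ΔDBD cells, 20 in place of 18 in Sp3-/- cells and 22 in place of 19 for WT steps. With the block and a GC content and length correction together, 11 in place of 6 values were called in Sp1 ΔDBD/ΔDBD cells.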
